A study of Mus musculus with 6 samples.

Results

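DNA methylation was examined at the 6 genes that encode the transcription factors best known for endothelial-mesenchymal transition: the Snail family genes Snai1 and Snai2, the Twist genes Twist1 and Twist2, and the zinc finger E-box binding genes Zeb1 and Zeb2. The genes were listed by name, and their data were the 655 tiles of 1 kb that overlapped each gene's RefSeq span (GRCm38.p6, the assembly behind mm10) extended by 30 kb on each side, out of 1954255 tiles in all. They are 6 of 20457 protein-coding genes on chromosomes 1 to 19 with a measured window. The samples were endothelial cells sorted by flow cytometry from mouse lung, 3 from Dnmt3a knockout mice (KO) and 3 from wild-type mice (WT). Dnmt3a is a de novo DNA methyltransferase. The sources used here do not give how it was deleted, any Cre driver, or the age and sex of the mice. Nothing states that each sample is another mouse, so the spread behind the p-values may be technical. Methylation was read by tagmentation-based whole-genome bisulfite sequencing and is given as the methylation level in percent of each tile. The files hold no read counts, so depth is unknown and counting error cannot be computed. A level is an average over the sorted cells, so a complete change in some cells and a smaller change in every cell cannot be told apart.

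In endothelial-mesenchymal transition, endothelial cells lose junctions and endothelial gene expression and take on features of mesenchymal cells. It takes part in the formation of heart valves and is studied in lung vascular disease and fibrosis. Transforming growth factor beta, bone morphogenetic protein, Notch and Wnt signals induce these factors. Snail and Zeb proteins are zinc finger proteins and Twist proteins are basic helix-loop-helix proteins. All of them bind E-box sequences and repress genes such as the cadherin genes of cell junctions, and each of the 6 is also used in other lineages.

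Over the whole table a sample's mean level was 63.5 to 63.8% in KO samples and 68.7 to 69.5% in WT samples, and the median level differed by -4.89 points. Every result below sits on this shift, so calls are also given after each sample was centred on its own median. A tile was called when its adjusted p was under 0.05 (limma over all tiles, Benjamini-Hochberg) and its group means differed by at least 10 points. By this rule 16.2% of all tiles were lower in KO and 0.0796% were higher. The 8 of 14 endothelial genes with a listed start averaged 12.2% in KO and 16.1% in WT there. The averages were 47.6% in KO and 56.1% in WT for 7 leukocyte genes and 27.4% in KO and 42.5% in WT for 7 epithelial genes. For 10 mesenchymal genes they were 25.6% in KO and 36.6% in WT. In WT the leukocyte and epithelial lists overlapped the endothelial list only through Lcp1 and Nkx2-1. The leukocyte gene Lcp1 (6.98% in KO, 10.3% in WT) and the epithelial gene Nkx2-1 (1.24% in KO, 1.66% in WT) lay under the endothelial gene Egfl7 (24.0% in KO, 25.5% in WT). The other leukocyte genes lay above Egfl7 in WT, from Coro1a (29.8%) to Itgam (73.5%). So did the other epithelial genes, from Krt8 (36.8%) to Hopx (63.0%). Of the mesenchymal genes, Vim, Pdgfra, Col1a2 and Cnn1 lay under Egfl7 in WT and the rest above it. Low levels were not particular to the endothelial genes, since 15 genes of the signals that induce the transition averaged 6.79% in KO and 11.9% in WT at their starts. The 11 relatives of the factors averaged 10.3% in KO and 16.7% in WT.

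Snai1 and Zeb2 lost methylation over most of their windows, and at Snai2, Twist1, Twist2 and Zeb1 a smaller share of the tiles was called lower. At Zeb1 the called tiles were spread over the window, and 182 of its 203 tiles had a lower mean in KO. A lower KO mean was common everywhere, since 1554828 of all 1954255 tiles had a difference below about 0.013 points. In all, 234 of the 655 tiles were called lower in KO and 0 were called higher (limma), where 16.2% of all tiles were lower and 0.0796% higher. A higher KO mean at an unadjusted p under 0.05 was seen in 1 tile, and the share of all tiles under this rule is not given here. Of the window of Snai1, 40 of 64 tiles were called lower, 62.5%. For Zeb2 the count was 117 of 183, 63.9%. The share was 22.7% for Zeb1 (46 of 203), 20.9% for Snai2 (9 of 43), 16.4% for Twist1 (9 of 55) and 12.1% for Twist2 (13 of 107). The share of Twist1 was close to the 16.2% of all tiles and that of Twist2 was under it. After centring, 130 of the 234 calls were kept and 5 other tiles were called higher, against 6.64% lower and 0.931% higher over all tiles. After scaling each sample to one mean level the counts were 136 lower and 11 higher, against 6.58% and 1.57% over all tiles. On centring, Zeb2 kept 72 calls in 183 tiles, Snai1 29 in 64 and Snai2 6 in 43. Zeb1 kept 14 in 203, Twist1 4 in 55 and Twist2 5 in 107. The shares of Zeb1 and Twist1 were then close to the 6.64% of all tiles, and that of Twist2 was under it. Of the 5 tiles called higher after centring, 3 were at Snai2 and 2 at Twist2. After scaling, Snai2 had 4 tiles called lower and 5 called higher.

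Every KO value was under every WT value in 340 of the 655 tiles and above every WT value in 5, where these orders held in 31.6% and 1.54% of all tiles. In 137 of the 340 the tile was in the Zeb2 window and in 97 it was in the Zeb1 window. The median difference of a tile was -14.7 points at Snai1, -14.4 at Zeb2, -5.99 at Zeb1, -4.04 at Twist2, -3.50 at Twist1 and -2.09 at Snai2, beside -4.05 over all tiles. A loss of 30 points or more was called in 34 tiles of Zeb2, 14 of Snai1 and 1 of Snai2, and in 0 tiles of the other 3 windows, 49 of the 655, and in 1.34% of all tiles. A KO mean under 10% met a WT mean of at least 50% in 5 tiles of Zeb2 and 3 of Snai1, 8 of the 655, and in 0.0638% of all tiles.

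**Figure D1:**
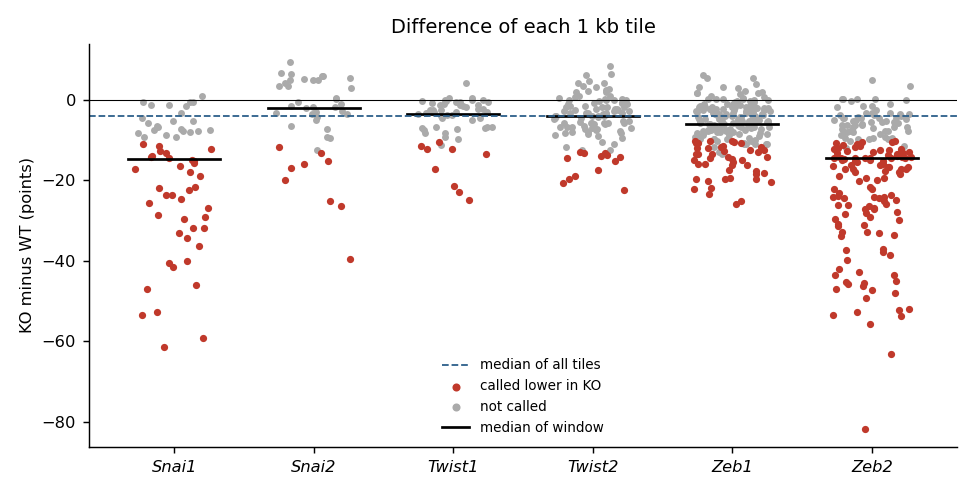
Difference in methylation level, KO minus WT in percentage points, of each 1 kb tile in the 6 windows; red points were called lower in KO, grey points were not called, black bars are window medians and the dashed line is the median of all tiles (-4.05 points). The window medians of Snai1 and Zeb2 lie at -14.7 and -14.4 points, and the lowest point is a Zeb2 tile at -81.7 points.

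Averaged over its whole window, Snai1 was at 48.6, 48.6 and 49.2% in the KO samples, against 68.7, 67.6 and 67.7% in the WT samples. Zeb2 was at 52.3, 53.0 and 54.3% in KO and 72.7, 70.7 and 71.5% in WT. The groups of either gene lay far apart relative to the spread within them. The differences were -19.2 points for Snai1 (standard error 0.648, limma over all gene windows, adjusted p = 9.54e-11) and -18.4 points for Zeb2 (standard error 0.720, adjusted p = 1.93e-10). Of the 20457 gene windows, 82 had a larger loss than Snai1 and 104 a larger loss than Zeb2.

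The windows of the other 4 genes differed by amounts close to the median of all gene windows, -5.73 points. Zeb1 averaged 69.0% ± 1.08 in KO and 75.96% ± 0.787 in WT (SD, n = 3 each), with a difference of -6.92 points (limma, adjusted p = 1.64e-07). Twist1 averaged 44.0% ± 0.752 in KO and 49.5% ± 0.194 in WT, with a difference of -5.49 points (adjusted p = 3.60e-06). Twist2 averaged 56.6% ± 0.229 in KO and 61.4% ± 0.599 in WT, and Snai2 averaged 63.97% ± 1.21 in KO and 68.4% ± 0.630 in WT. Their differences of -4.79 and -4.42 points had adjusted p of 6.36e-06 and 3.09e-05 but missed the minimum of 5 points set for a window. So 4 of 6 windows were called lower, where 58.3% of all gene windows were called lower and 0.00978% higher. Without WT sample 2, Twist2 passed as well, at -5.11 points. After centring, only the windows of Snai1 (-14.3 points) and Zeb2 (-13.5 points) of the 6 were still called, where 15.7% of gene windows were lower and 2.55% higher, and after scaling the same windows were, where 15.1% were lower and 2.83% higher. The direction turned for Twist2 (0.10 points) and Snai2 (0.47 points) after centring and for Snai2 after scaling (0.93 points). As deposited, every KO sample lay below every WT sample in each of the 6 windows, the smallest p that a two-sided exact permutation test allows with 3 against 3 samples being 0.10.

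**Figure D2:**
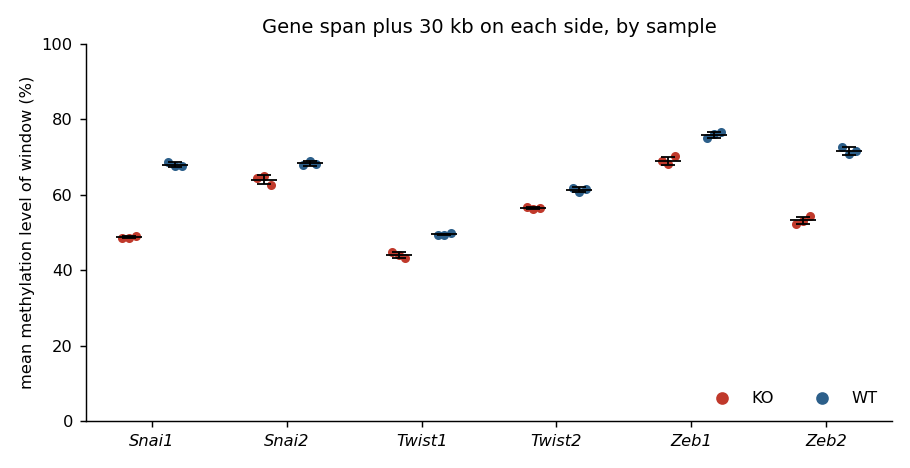
Mean methylation level in percent over the gene span plus 30 kb on each side, for each sample; points are samples (KO red, WT blue), black bars are means with standard deviations, n = 3 per group. KO lies below WT for all 6 genes, with the widest gaps at Snai1 (means 48.8% in KO and 67.998% in WT) and Zeb2 (53.2% in KO and 71.6% in WT).

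The gap between the paralogs of a family was compared between KO and WT samples. Within each sample, the Snai1 window minus the Snai2 window was -15.8, -16.4 and -13.5 points in KO, against 0.912, -1.51 and -0.573 points in WT. The Zeb2 window minus the Zeb1 window was -16.5, -15.0 and -15.9 points in KO and -2.48, -5.31 and -5.22 points in WT. For these pairs the KO and WT values did not overlap, and the gap changed by -14.8 and -11.5 points. Each pair had p = 0.10 (two-sided exact permutation over samples), the smallest possible, and 0.15 after adjustment over 3 pairs. The Twist2 window minus the Twist1 window was 12.02, 12.3 and 13.3 points in KO and 12.6, 11.3 and 11.7 points in WT, a change of 0.7004 points (exact permutation p = 0.30), with overlapping groups.

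Snai1, which encodes the transcriptional repressor Snail, spans chr2:167538195-167542814 on the forward strand and its window reaches the ubiquitin ligase gene Rnf114 upstream and the non-coding genes Gm11476 and Gm31619 downstream. Its RefSeq promoter, 250 bases before to 50 after the start site (chr2:167537945-167538244, GRCm38.p6), is shown because the levels of its tiles were low in both groups and differed by less than those of the tiles inside the gene. CG dinucleotides, the sites of methylation, are in capitals:
Snai1 promoter: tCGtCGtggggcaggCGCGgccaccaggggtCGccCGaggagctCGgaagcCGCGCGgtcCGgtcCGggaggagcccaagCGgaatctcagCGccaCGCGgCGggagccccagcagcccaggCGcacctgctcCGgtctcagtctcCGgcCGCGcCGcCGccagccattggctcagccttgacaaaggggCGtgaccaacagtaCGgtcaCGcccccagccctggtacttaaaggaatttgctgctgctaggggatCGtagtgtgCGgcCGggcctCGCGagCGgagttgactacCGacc
It holds 34 CG dinucleotides, a number that 7.73% of 32851 promoters in the table reach, against a median of 7. The E-box CAGGTG, searched on both strands (reverse complement CACCTG), occurs 1 time in it and at least once in 20.2% of all promoters, which describes these letters only.

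The tile with the Snai1 start (167538001 to 167539000) was at 0.715, 1.02 and 1.93% in KO and 8.81, 9.03 and 9.99% in WT. The tile before it was at 0.781, 2.55 and 5.98% in KO and 14.1, 10.9 and 8.91% in WT. Both were lower in every KO sample, with differences of -8.05 and -8.21 points (limma, adjusted p = 5.88e-05 and 0.000860), and missed the minimum of 10 points. The change was much larger in the next tiles, inside the gene. From 167539001 to 167540000, centred 1.31 kb after the start, the level was 2.60, 4.65 and 0.538% in KO, against 74.97, 59.98 and 57.04% in WT. From 167540001 to 167541000 it was 2.15, 1.24 and 2.41% in KO, against 58.8, 50.2 and 57.1% in WT. These tiles were methylated in every WT sample and nearly unmethylated in every KO sample, with differences of -61.4 points (standard error 3.90, adjusted p = 1.07e-09) and -53.4 points (standard error 2.88, adjusted p = 1.82e-10).

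Towards the far end of Snai1 the KO level climbed back, to 13.7% ± 3.13 and then 34.2% ± 9.61 in its last tiles, where WT had 53.7% ± 1.66 and 61.1% ± 3.598 (SD, n = 3). The tile just after the gene was low in both groups, at 2.53% ± 1.39 in KO and 3.89% ± 2.18 in WT. Over the 3 tiles that lay wholly inside the gene, Snai1 averaged 6.08% ± 0.626 in KO and 57.7% ± 4.75 in WT, with a difference of -51.6 points (limma over gene spans, adjusted p = 1.55e-05). Only 5 of 18424 gene spans had a larger loss. This rank sets a mean of 3 tiles beside means of much longer spans, such as the 129 tiles of Zeb2. Over all 5 tiles that touch Snai1 the means were 10.7% in KO and 48.7% in WT. Upstream, the tile from 167536001 to 167537000 was at 7.08% ± 2.42 in KO and 53.1% ± 5.04 in WT. The longest stretch of adjacent tiles under 10% around the start was thus 5 kb in each KO sample, against 1, 1 and 2 kb in the WT samples.

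Losses were denser after Snai1 than before it, where 16.2% of all tiles were called lower. Of 30 flank tiles after the gene, 27 were called lower, at 42.9% ± 0.415 in KO and 67.7% ± 1.14 in WT on average. Before the gene, 9 of 29 were called, at 61.4% ± 0.773 in KO and 71.7% ± 0.357 in WT. These sides were set apart after the values were seen and not tested against each other. The longest run of adjacent called tiles covered 13 tiles from 167544001 to 167557000, at 49.2% ± 0.688 in KO and 74.5% ± 1.78 in WT, and reached Gm11476. Within Gm11476, the tile from 167559001 to 167560000 was at 4.19, 1.89 and 3.39% in KO and 48.3, 41.5 and 44.4% in WT (limma, adjusted p = 4.79e-10). Of 20 window tiles that touch Gm11476, 18 were called lower, and of 9 that touch Rnf114, 0 were. At the 16.2% of all tiles few calls would fall in 9 tiles, and the genes were not tested against each other.

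Snai2, known as Slug and a regulator of neural crest and mesenchymal cells, spans chr16:14705852-14709395 and is the only RefSeq gene in its window. Its promoter is not in the table used here, so its strand was not used and its ends are called left and right. The left end lay in a block that was unmethylated in both groups: the tile that holds it was at 1.02, 0.236 and 0.280% in KO and 1.20, 1.21 and 0.712% in WT, with overlap. The next tile was at 1.78% ± 0.907 in KO and 3.54% ± 1.13 in WT. Averaged over 1 kb on either side, the left end was at 5.90% ± 0.383 in KO and 13.3% ± 1.76 in WT, with a difference of -7.40 points that missed the 10-point minimum (limma over gene ends, adjusted p = 0.000189).

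Losses at Snai2 began beside this block. The tile from 14707001 to 14708000 was at 17.8, 8.33 and 10.04% in KO, against 47.9, 31.3 and 35.8% in WT. The following tile, to 14709000, was at 22.3, 34.2 and 25.1% in KO, against 71.4, 62.4 and 66.5% in WT. No KO sample reached a WT sample in either tile, and the differences were -26.3 and -39.6 points (limma, adjusted p = 1.59e-05 and 1.25e-06). On the other side of the block, the tile from 14704001 to 14705000 was at 15.4% ± 1.02 in KO and 35.3% ± 5.56 in WT (adjusted p = 3.09e-05). The right end of the gene was at 41.9% ± 5.66 in KO and 74.3% ± 2.10 in WT. It was called lower at -32.4 points, as were 19.6% of gene ends, with 0.0473% higher (adjusted p = 1.06e-05). The longest run of called tiles, from 14707001 to 14712000, averaged 33.9% ± 2.24 in KO and 60.9% ± 4.98 in WT.

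Left of this centre the Snai2 window was not lower in KO. The 17 tiles left of the gene averaged 67.0% ± 1.52 in KO and 65.5% ± 3.06 in WT. Of these, 1 was called lower, where 16.2% of all tiles were. A difference above 0 was seen in 16 of the 43 tiles, where 1554828 of all 1954255 tiles lay below about 0.013 points. It reached 9.31 points in the tile from 14700001 to 14701000, at 59.5, 59.1 and 58.9% in KO and 44.5, 45.1 and 59.9% in WT. The 3 KO values there lay within 1 point of each other while WT sample 3 stood apart from the other WT samples, and the tile was not called (adjusted p = 0.174). Without WT sample 3 it was called higher, at 14.3 points (adjusted p = 0.0431). With the flank reduced to 10 kb the Snai2 window was called lower, at -9.49 points, as were 56.4% of such windows.

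Twist1, a basic helix-loop-helix factor of cranial and mesenchymal development, spans chr12:33957671-33959831 on the forward strand. Its promoter (chr12:33957421-33957720) is shown as one that was unmethylated in both groups, with CG in capitals:
Twist1 promoter: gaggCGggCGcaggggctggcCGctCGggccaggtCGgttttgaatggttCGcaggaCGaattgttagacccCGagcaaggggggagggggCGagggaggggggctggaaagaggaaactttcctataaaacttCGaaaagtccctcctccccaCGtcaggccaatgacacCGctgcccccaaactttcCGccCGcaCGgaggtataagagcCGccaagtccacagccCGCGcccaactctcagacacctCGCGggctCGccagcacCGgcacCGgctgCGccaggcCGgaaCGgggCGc
It has 27 CG dinucleotides, a number that 15.5% of promoters reach, and no CAGGTG or CACCTG. The tile with the start was at 0.801, 0.582 and 0.866% in KO and 1.23, 1.40 and 1.47% in WT, with a difference of -0.62 points (limma, adjusted p = 0.739). The 3 tiles of the gene together averaged 1.95% in KO and 2.12% in WT, and 0 of them were called.

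Of the 9 called tiles at Twist1, 7 lay on the slopes of a wide unmethylated region. Upstream, the tile from 33954001 to 33955000 was at 8.92, 14.1 and 8.99% in KO and 33.6, 32.9 and 34.4% in WT (limma, adjusted p = 4.38e-07). Downstream, the tile from 33961001 to 33962000 was at 16.4, 14.2 and 12.7% in KO and 39.7, 42.2 and 36.0% in WT (adjusted p = 1.12e-06). The third by p, from 33964001 to 33965000, was at 8.24% ± 5.07 in KO and 29.6% ± 2.34 in WT. WT levels were moderate in these tiles, and no KO value reached them. Between 33961001 and 33965000, 4 adjacent tiles averaged 7.99% ± 2.33 in KO and 25.4% ± 1.98 in WT, and from 33966001 the level was under 5% in both groups again. The neighbour Ferd3l, another basic helix-loop-helix gene, was unmethylated in both groups, at 1.64% ± 0.802 in KO and 1.68% ± 0.558 in WT in 1 of its tiles.

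Twist2, also called Dermo1, a relative of Twist1 in dermal and other mesenchymal cells, spans chr1:91801461-91848034 on the forward strand. The tile with its start was at 1.60, 0.722 and 0.428% in KO and 0.9003, 1.45 and 0.364% in WT, with overlapping groups (limma, adjusted p = 0.995). The tile just upstream, from 91800001 to 91801000, was at 3.69, 4.85 and 2.78% in KO and 23.3, 22.8 and 17.7% in WT (adjusted p = 4.70e-07). Here the KO samples were nearly unmethylated and the WT samples were not. The body of Twist2 averaged 54.7% ± 0.622 in KO and 60.1% ± 0.785 in WT. It was called lower at -5.37 points, which centring reduced to -0.48 points. The longest run of called tiles lay 71 to 73 kb after the start, beyond the gene, at 17.5% ± 1.38 in KO and 35.0% ± 1.64 in WT over 3 tiles. Its tiles from 91872001 to 91873000 and from 91873001 to 91874000 differed by -19.0 and -19.7 points (adjusted p = 2.07e-05 and 1.24e-05). Inside the gene, 2 adjacent tiles in the non-coding gene Gm46117 averaged 33.3% ± 5.88 in KO and 54.9% ± 1.82 in WT. Beyond the gene, the tile from 91853001 to 91854000 was at 69.5, 85.2 and 75.1% in KO and 69.3, 69.6 and 65.6% in WT, with KO sample 1 inside the WT range. It is the 1 tile named above with an unadjusted p under 0.05 and a higher KO mean, and it was not called (limma, 8.41 points, adjusted p = 0.142). Without KO sample 1 it was called higher, at 11.96 points (adjusted p = 0.0451).

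Zeb1, a zinc finger and homeodomain repressor, spans chr18:5591327-5775468, and the non-coding gene Gm10125 overlaps its left end. Its promoter is not in the table used here, so left and right are used again. The tile with the left end was at 13.5, 3.01 and 2.79% in KO and 5.26, 3.87 and 3.82% in WT, with KO sample 1 above all others. The next tile was at 0.472% ± 0.275 in KO and 0.403% ± 0.113 in WT. The left end as a whole, over 1 kb on either side, was at 22.6% ± 1.25 in KO and 26.8% ± 1.13 in WT. It was not called (limma, adjusted p = 0.0376, -4.18 points). The right end was at 77.4% ± 4.75 in KO and 76.0% ± 3.91 in WT, with overlap.

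Called tiles in Zeb1 formed short runs. The longest, with 6 tiles from 5595001 to 5601000, began beside the unmethylated block at the left end and averaged 40.4, 41.3 and 50.8% in KO and 64.5, 63.2 and 68.2% in WT. A run of equal length from 5621001 to 5627000 averaged 59.6% ± 4.36 in KO and 78.5% ± 4.34 in WT and held the Zeb1 tile with the smallest p, from 5625001 to 5626000, at 57.0, 51.1 and 44.7% in KO and 79.2, 76.7 and 72.4% in WT (limma, adjusted p = 0.000197). Left of the gene, 14 of 27 tiles were called lower, at 68.2% ± 2.75 in KO and 77.6% ± 1.20 in WT on average. They included a run of 5 tiles from 5561001 to 5566000, at 50.2% ± 6.90 in KO and 68.6% ± 3.56 in WT. This side was set apart after the values were seen. Over both flanks 19 of 47 tiles were called lower, 40.4%, against 16.2% of all tiles. After centring 3 of the 47 were, a share close to the 6.64% of all tiles. The tile at the window's right edge, from 5805001 to 5806000, was at 53.8% ± 5.55 in KO and 77.1% ± 0.512 in WT. The tile from 5747001 to 5748000 was at 70.4% ± 1.35 in KO and 87.8% ± 5.44 in WT. The body of Zeb1 averaged 69.1% ± 1.28 in KO and 75.5% ± 1.07 in WT. This difference of -6.43 points was -1.54 points after centring.

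Zeb2, known as SIP1 for its binding to Smad proteins, spans chr2:44983512-45117442 on the reverse strand. The promoter table lists 4 starts for it, which fall in 3 tiles with different levels, and 1 promoter of each tile is shown with CG in capitals:
Zeb2 outermost promoter (chr2:45117393-45117692): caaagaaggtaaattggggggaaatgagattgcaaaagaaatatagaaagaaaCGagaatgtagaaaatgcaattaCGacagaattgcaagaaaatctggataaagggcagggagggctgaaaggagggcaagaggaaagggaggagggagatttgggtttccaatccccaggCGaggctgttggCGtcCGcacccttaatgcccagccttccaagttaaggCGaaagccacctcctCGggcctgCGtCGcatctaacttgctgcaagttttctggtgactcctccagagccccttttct
Zeb2 second promoter (chr2:45113230-45113529): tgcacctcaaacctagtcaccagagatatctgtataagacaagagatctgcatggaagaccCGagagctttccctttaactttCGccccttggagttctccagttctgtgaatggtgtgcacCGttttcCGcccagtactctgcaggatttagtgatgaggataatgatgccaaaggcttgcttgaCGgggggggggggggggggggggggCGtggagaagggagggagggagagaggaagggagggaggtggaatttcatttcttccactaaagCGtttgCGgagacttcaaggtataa
Zeb2 innermost promoter (chr2:45110228-45110527): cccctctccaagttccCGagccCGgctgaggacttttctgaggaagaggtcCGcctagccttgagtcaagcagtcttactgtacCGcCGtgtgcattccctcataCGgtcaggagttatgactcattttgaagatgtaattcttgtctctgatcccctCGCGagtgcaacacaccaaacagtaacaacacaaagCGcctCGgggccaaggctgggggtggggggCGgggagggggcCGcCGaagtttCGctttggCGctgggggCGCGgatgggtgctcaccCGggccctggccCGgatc
They hold 9, 8 and 19 CG dinucleotides, numbers that 45.8, 48.6 and 28.1% of promoters reach, and no CAGGTG or CACCTG. The tile of the outermost start was at 2.15, 3.91 and 5.08% in KO and 24.5, 21.3 and 15.2% in WT. The tile of the second start was at 2.40, 0.714 and 0.683% in KO and 21.8, 27.0 and 24.2% in WT. The tile of the innermost start was at 0.413, 0.362 and 0.845% in KO and 0.295, 0.228 and 0.329% in WT. Both outer starts were partly methylated in WT and lower in KO, with differences of -16.6 and -23.1 points (limma, adjusted p = 4.23e-06 and 8.52e-09), while the innermost, which has the most CG of the 3, was unmethylated in both groups (adjusted p = 0.8996).

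The largest difference of all 655 tiles lay between these starts. The tile from 45114001 to 45115000, which the antisense gene Zeb2os overlaps in part, was at 0.183, 0.430 and 4.05% in KO, against 83.7, 88.5 and 77.5% in WT. It was nearly unmethylated in every KO sample and highly methylated in every WT sample, and only 22 tiles of all 1954255 had a larger loss. The difference was -81.7 points (standard error 3.89, limma, adjusted p = 7.36e-11). The tile and its neighbours on either side were at 1.27% ± 0.984, 1.55% ± 2.17 and 1.24% ± 0.921 in KO, in order of position, against 24.3% ± 2.60, 83.2% ± 5.48 and 18.9% ± 3.15 in WT. The longest stretch under 10% was 11, 10 and 12 kb in the KO samples, against 4, 4 and 5 kb in the WT samples.

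Beyond these starts the loss went on through the gene. Of 131 tiles that touch Zeb2, 87 were called lower, 66.4%, beside 16.2% of all tiles. The tiles wholly inside the gene averaged 49.1, 49.2 and 50.95% in KO and 71.3, 69.2 and 70.1% in WT. The difference of -20.5 points (limma over gene spans, adjusted p = 1.60e-05) was exceeded by 384 of 18424 gene spans. The longest run of called tiles in the 6 windows was in Zeb2, 26 tiles from 45028001 to 45055000, at 42.2, 40.8 and 44.5% in KO and 71.4, 69.9 and 72.1% in WT. It holds the tile from 45038001 to 45039000, 78.9 kb after the outermost start, at 5.27, 3.29 and 1.79% in KO and 71.9, 56.6 and 71.2% in WT (adjusted p = 6.26e-10). A run of 14 tiles, from 45094001 to 45108000, joined the unmethylated block and averaged 22.7% ± 2.999 in KO and 61.7% ± 3.28 in WT. Its tile from 45102001 to 45103000 was at 9.42% ± 4.36 in KO and 65.2% ± 3.44 in WT (adjusted p = 1.12e-09). A run of 9 tiles from 45018001 to 45027000 held the microRNA gene Mir5129.

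**Figure D3:**
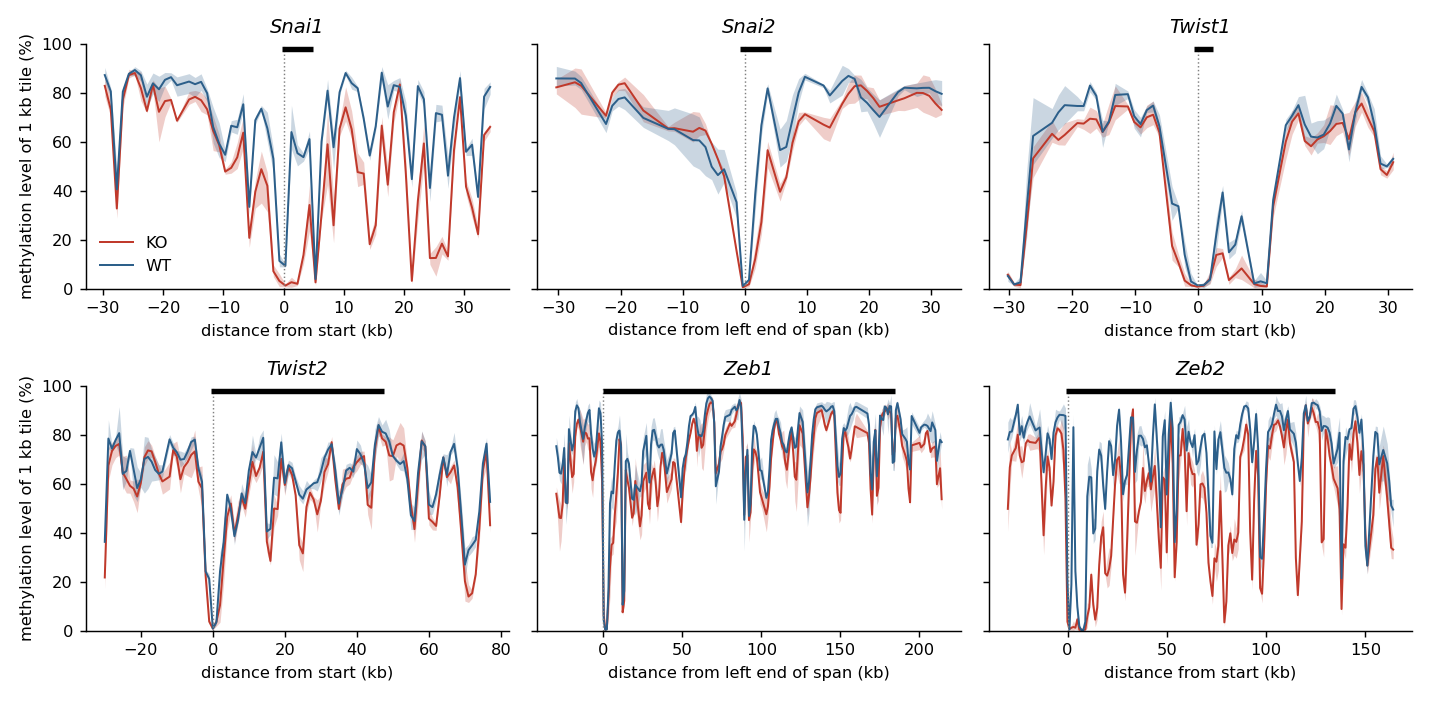
Methylation level in percent of each 1 kb tile against distance in kb from the start, or from the left end of the span for Snai2 and Zeb1, for KO (red) and WT (blue); lines are means of 3 samples, shading is the range, and the black bar is the gene. The lines separate over most of Snai1 and Zeb2, and near the unmethylated block at Snai2, Twist1, Twist2 and Zeb1. They also separate in short stretches elsewhere, such as 71 to 73 kb after the start of Twist2.

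Start sites were also compared as a class, as the mean of tiles that overlap 1 kb on either side of the outermost listed start. Snai1 was at 2.31% ± 0.818 in KO and 28.2% ± 3.89 in WT. Zeb2 was at 19.5% ± 2.27 in KO and 36.2% ± 2.22 in WT. Both starts were called lower (limma over 16076 gene starts, adjusted p = 3.68e-06 and 7.13e-05). Twist2, at 2.81% ± 0.964 in KO and 8.57% ± 1.48 in WT, and Twist1, at 1.09% ± 0.376 in KO and 1.89% ± 0.628 in WT, were not. So 2 of 4 starts were called, where 16.5% of all gene starts were called lower and 0.0435% higher. The same starts were called after centring (background 6.73% lower and 0.697% higher) and after scaling (9.73% lower and 0.61% higher). Within 500 bp 0 of 4 were called, where 12.8% of all were lower. The differences there were -8.13 points for Snai1, -8.17 for Zeb2 and -8.74 for Twist2 (2.34% ± 0.647 in KO, 11.1% ± 1.77 in WT, limma, adjusted p = 0.000171). The calls of Snai1 and Zeb2 thus depended on the width taken. The tile with the outermost Zeb2 start was itself called, at -16.6 points, and the tile with the Snai1 start was not, at -8.05 points. Over gene bodies 5 of 6 were called lower, where 52.1% of all were lower and 0.136% higher. After centring and after scaling the bodies of Snai1, Snai2 and Zeb2 were called, against backgrounds of 18.7% and 18.3% lower and 2.71% and 4.49% higher. The exception was Twist1, at 1.16% ± 0.445 in KO and 1.39% ± 1.11 in WT in the single tile inside it.

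Counted over all 6 windows, tiles under 10% numbered 47, 45 and 49 in the KO samples and 24, 25 and 27 in the WT samples. The groups did not overlap (two-sided exact permutation test, p = 0.10). Over all tiles of the table the counts were 40782, 41888 and 40924 in KO and 26994, 27381 and 27483 in WT. The KO mean was thus 1.86 times the WT mean in the 6 windows and 1.51 times in the whole table, and these ratios were not tested against each other. Most of the additional tiles were at Zeb2, with 16, 13 and 16 in KO and 5, 5 and 6 in WT, at Snai1, with 9, 7 and 7 in KO and 2, 2 and 3 in WT, and at Twist1, with 14, 14 and 16 in KO and 10, 11 and 10 in WT. At Zeb1 the counts overlapped, with 3, 5 and 4 in KO and 3, 3 and 4 in WT, and at Snai2 they were 2, 3 and 2 in KO and 2 in every WT sample. Twist2 had 3, 3 and 4 in KO and 2 in every WT sample.

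**Figure D4:**
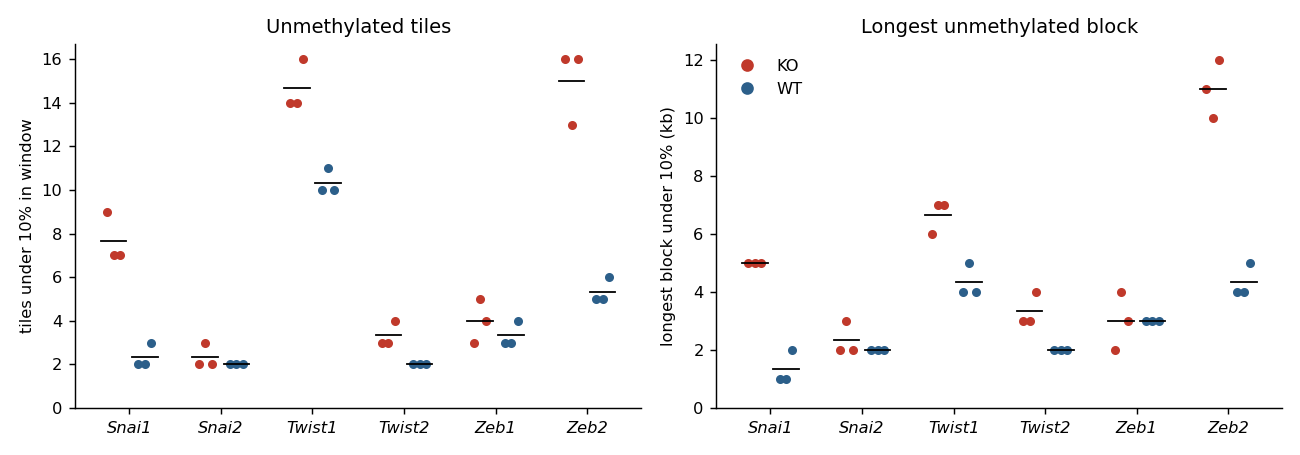
Number of 1 kb tiles under 10% methylation in each window (left) and length in kb of the longest stretch of adjacent tiles under 10% (right), by sample, with KO in red and WT in blue and bars at the means of 3 samples. At Zeb2 the KO samples have 13 to 16 such tiles and stretches of 10 to 12 kb, against 5 to 6 tiles and 4 to 5 kb in WT.

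Genes around the 6 factors were counted by the same window measure. Of 25 genes of the signals that induce the transition, all 25 windows were called lower and 0 higher, where 58.3% of all gene windows were called lower, with a median difference of -9.76 points beside -5.73 for all gene windows. Smad3, a transducer of transforming growth factor beta signals, was at 55.4% ± 0.133 in KO and 75.7% ± 1.07 in WT. The inhibitory Smad7 was at 36.98% ± 0.585 in KO and 57.1% ± 0.702 in WT. The receptor gene Fgfr1 was at 56.5% ± 0.157 in KO and 71.8% ± 0.521 in WT. Of the relatives, partners and antagonists of the factors, 17 of 22 measured were called lower (median -8.46 points). Among them were the mesenchymal factor Tcf21 (44.1% ± 0.764 in KO, 61.7% ± 0.103 in WT), the E-box partner Tcf12 (65.1% ± 0.521 in KO, 75.6% ± 0.124 in WT) and the corepressor Ctbp2 (62.3% ± 0.119 in KO, 72.5% ± 0.525 in WT).

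All 14 endothelial genes, which are switched off in the transition, were called lower over their windows (median -10.2 points). They included the ETS factor Fli1 (41.4% ± 0.258 in KO, 59.9% ± 1.11 in WT), the nitric oxide synthase gene Nos3 (46.9% ± 0.793 in KO, 61.4% ± 0.836 in WT) and the von Willebrand factor gene Vwf (63.2% ± 0.464 in KO, 73.1% ± 0.572 in WT). Of the 23 mesenchymal genes, which are switched on, 18 were called lower (median -7.48 points), among them the matricellular genes Ccn2 (56.3% ± 0.257 in KO, 67.8% ± 0.594 in WT) and Sparc (51.4% ± 0.616 in KO, 63.4% ± 0.397 in WT) and the intermediate filament gene Vim (51.2% ± 0.365 in KO, 62.5% ± 0.241 in WT). Of markers of other lung cells, 7 of 10 leukocyte genes (median -6.71 points) and 9 of 10 epithelial genes (median -9.45 points) were called lower, beside the 58.3% of all gene windows. The leukocyte genes with the smallest p were Cd79a (51.4% ± 0.268 in KO, 61.5% ± 0.305 in WT), Cd52 (54.3% ± 0.806 in KO, 65.3% ± 0.803 in WT) and Lcp1 (66.4% ± 0.586 in KO, 73.7% ± 0.331 in WT). The epithelial ones were Hopx (59.9% ± 0.490 in KO, 72.5% ± 0.484 in WT), Krt8 (46.5% ± 0.547 in KO, 58.5% ± 0.278 in WT) and Sftpc (55.3% ± 0.322 in KO, 65.2% ± 0.913 in WT). In none of the 6 lists was a window called higher (limma, 0 of 104), where only 0.00978% of all gene windows were. None was higher at an unadjusted p under 0.05 either, a rule for which the share of all gene windows is not given here. After centring, 12 signal, 9 relative, 8 endothelial, 5 mesenchymal, 2 leukocyte and 5 epithelial genes were called lower, where 15.7% of all gene windows were.

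**Figure D5:**
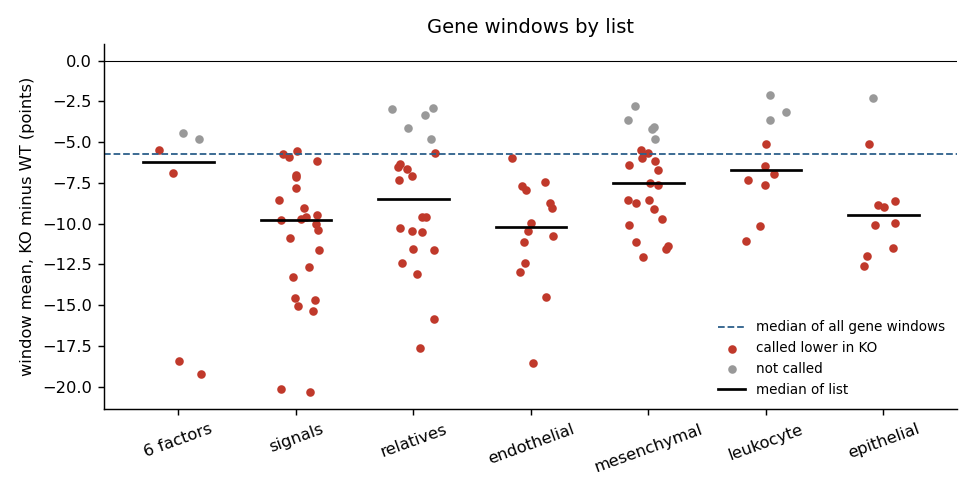
Difference of window means, KO minus WT in percentage points, for the 6 factors and for the genes of 6 lists; each point is a gene, red where called lower in KO, black bars are list medians and the dashed line is the median of all gene windows (-5.73 points). The lowest 2 of the 6 factors are Snai1 (-19.2) and Zeb2 (-18.4), near Smad3 and Smad7 in the list of signals (-20.3 and -20.1).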

How the data were processed

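Tagmentation-based bisulfite libraries of lung endothelial DNA were sequenced, 3 per sample, per the labels' protocols. The submitters' processing notes name BWA 0.7.8 and mm10. Per the file headers, the authors' deposited values are a methylation fraction per sample and 1 kb tile. How methylation was called, smoothed, filtered by coverage or tiled is not given in the sources used here. It holds no coverage, so depth and precision per tile are unknown. Deviations of adjacent tiles from their group mean correlated at r = 0.531 to 0.553 across tiles, so neighbouring tiles are not independent.

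Fractions were turned into percent. limma 3.58.1 (R 4.3.3) with a variance trend was fitted over all tiles, gene windows (span plus 30 kb), gene starts, gene ends and gene bodies, with Benjamini-Hochberg adjustment over each, and checked on simulated tiles. Calls needed an adjusted p under 0.05 and 10 points (tiles, starts, ends) or 5 points (windows, bodies). Runs join called tiles with at most 1 kb unmeasured between them. Gene positions and promoters are RefSeq GRCm38.p6, and promoters matched 4 of the 6 genes. Exons were not used here. Named tiles were, for each gene, those that hold a listed start and the 3 called tiles without group overlap that had the smallest p. Of each list, up to 3 called genes with the smallest p are named. Other tiles were chosen after their values were seen. The genes, lists and tests were chosen with earlier results of these data known. Alternatives covered scaling, the replicate number as a block, the logit scale, the variance trend, thresholds, flanks and each sample left out. Other steps ran in Python 3.11.15 with pandas 2.3.3, numpy 2.4.6 and, for plots, matplotlib 3.10.9.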

Additional observations from a re-analysis of the deposited data

How the results depend on the processing

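Over the 6 windows, 234 tiles were called lower. The count was 130 after centring, 136 after scaling to one mean level, 101 with a minimum of 20 points and 126 over gene spans only, where fewer tiles count, and 199 to 222 without any one sample. The count of tiles called higher, 0, became 5 after centring, 11 after scaling, and 0 to 1 without one sample. Called windows were 2 of 6 after centring and 2 after scaling, and 4 to 5 without one sample. Called starts were 0 of 4 within 500 bp and 2 without any one sample, and called bodies were 3 of 6 after centring and 3 after scaling, and 5 without any one sample. Genes of the lists called lower were 90, and 41 after centring, 39 after scaling and 87 to 91 without one sample. The excess of tiles under 10% in KO, 21.7, was 16.0 at a limit of 5%, 40.0 at 20%, and 20.7 to 22.7 without one sample. Centring shifts all tiles of a sample alike and added 4.89 points to each difference, which turned those smaller than this shift positive: 4.27 points for the start tile of Twist1, 4.09 for its start, 4.66 for its body, 0.10 for the Twist2 window, 0.47 for the Snai2 window (0.93 after scaling) and 0.71 for the left end of Zeb1. Uncalled differences near 0 also changed sign without one sample: the Twist2 start tile ranged from -0.33 (without KO sample 1; -0.26 without WT sample 3) to 0.29, the Twist1 body from -0.78 to 0.32 (without WT sample 3; 0.0082 without KO sample 2), and the right end of Zeb1 from -1.31 (without KO sample 2; -0.25 without WT sample 1) to 3.51. Deviations of same-numbered KO and WT samples from their group means were not correlated across tiles (r of -0.00321 to 0.0110). A shift common to all tiles of such a pair would not show in this correlation, so whether the samples were paired is not known. With the replicate number as a block 237 tiles, 4 windows, 2 starts, 5 bodies and 90 list genes were called lower.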
